A study of Bos taurus with 12 samples.

Results

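The 9 genes described here were GATM, GAMT, NNMT, INMT, HNMT, TPMT, AS3MT, COQ3 and COQ5. They were chosen by name, as enzymes that move a methyl group onto a small molecule, together with GATM, which makes the compound that GAMT methylates. All 9 were found by symbol among the 30336 gene IDs of the count files, and all 9 were abundant enough to be tested among 13212 genes. Liver RNA came from 12 Holstein heifer calves biopsied at 4 d of age, 6 per maternal diet, and all calves were managed alike. Dams of the CON calves ate a basal diet with 1.47 Mcal/kg of dry matter and 15.3% crude protein for the last 28 d before calving. Dams of the MET calves ate that same diet with methionine protected from the rumen by ethyl cellulose. The comparison asks whether the added methionine of the dam is accompanied by a different mRNA abundance of these enzymes in the liver of the calf.

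S-adenosylmethionine (SAM), made from methionine, is the donor of the methyl group in each of these methylation reactions, and S-adenosylhomocysteine (SAH) is what remains of it. In mammals the methylation of guanidinoacetate to creatine is counted among the large uses of methyl groups. The other reactions mark nicotinamide, histamine, indoleamines, thiopurines and arsenic for removal, or build the ring of coenzyme Q.

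Gene counts summed to between 8277789 and 10397604 reads in a library. The median total was 9211720 for CON and 9872815 for MET calves. Expression is given as CPM, the reads of a gene scaled to the size of its library with TMM factors, and 3 reads equalled between 0.277 and 0.377 CPM on that scale. Some libraries were nearly identical. Between CON replicates 1 and 4 the chi-square per gene was 1.31, and between MET replicates 1 and 3 it was 1.23, where 1 stands for counting noise alone. The other 64 pairs of libraries lay between 23.3 and 122.2. Although the labels give separate calves, both pairs were treated as 1 sample each, so that means and SD are over 5 CON and 5 MET samples. The comparison of the diets was run on the 12 libraries and again on 10 samples, after adding up the reads within each pair. Levels of different genes were compared, and correlations run, on the 10 samples alone. The CPM of a pair is the mean of its libraries, while correlations used their summed reads. The first index sequence was shared by all CON libraries and was a different one in all MET libraries; the effects of index and diet cannot be told apart. Transcripts that define liver were abundant, with ALB between 30442 and 72313 CPM. Of 7 skeletal muscle markers 3 had no read in any library, among them CKM, and the summed level of the list was at most 0.313 CPM. Of 5 exocrine pancreas markers CPA1 and PNLIP had no read, and the summed level was at most 2.07 CPM.

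Of the 9 genes 1, GATM, passed an FDR of 0.10 over the 12 libraries, and it was lower in MET calves. Over all genes tested 583 passed, which is 4.41%, with 276 higher (2.09%) and 307 lower (2.32%) in MET, and DESeq2 called 1295 (9.8%). The share among the 9 genes rests on a single gene and is not set apart from that background. The count of 583 fell to 26 without CON replicate 1 and to 35 without CON replicate 4. It was 285 without CON replicate 3, 377 without CON replicate 6, and 203, 345, 330, 298, 340 and 214 without MET replicates 1 to 6 in turn. The median log2 fold change of the 9 genes was 0.088 over the 12 libraries and −0.053 over 10 samples, against −0.0031 and −0.0023 over all genes. Over 10 samples no gene passed in edgeR, among these 9 or in the whole table, while 2162 genes (16.4%) reached 0.05 before adjustment and DESeq2 called 591 genes (4.47%). The CPM of CON and MET samples overlapped for each of the 9 genes, while 3.71% of all genes tested had no overlap between the 5 CON and 5 MET samples.

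**Figure D1:**
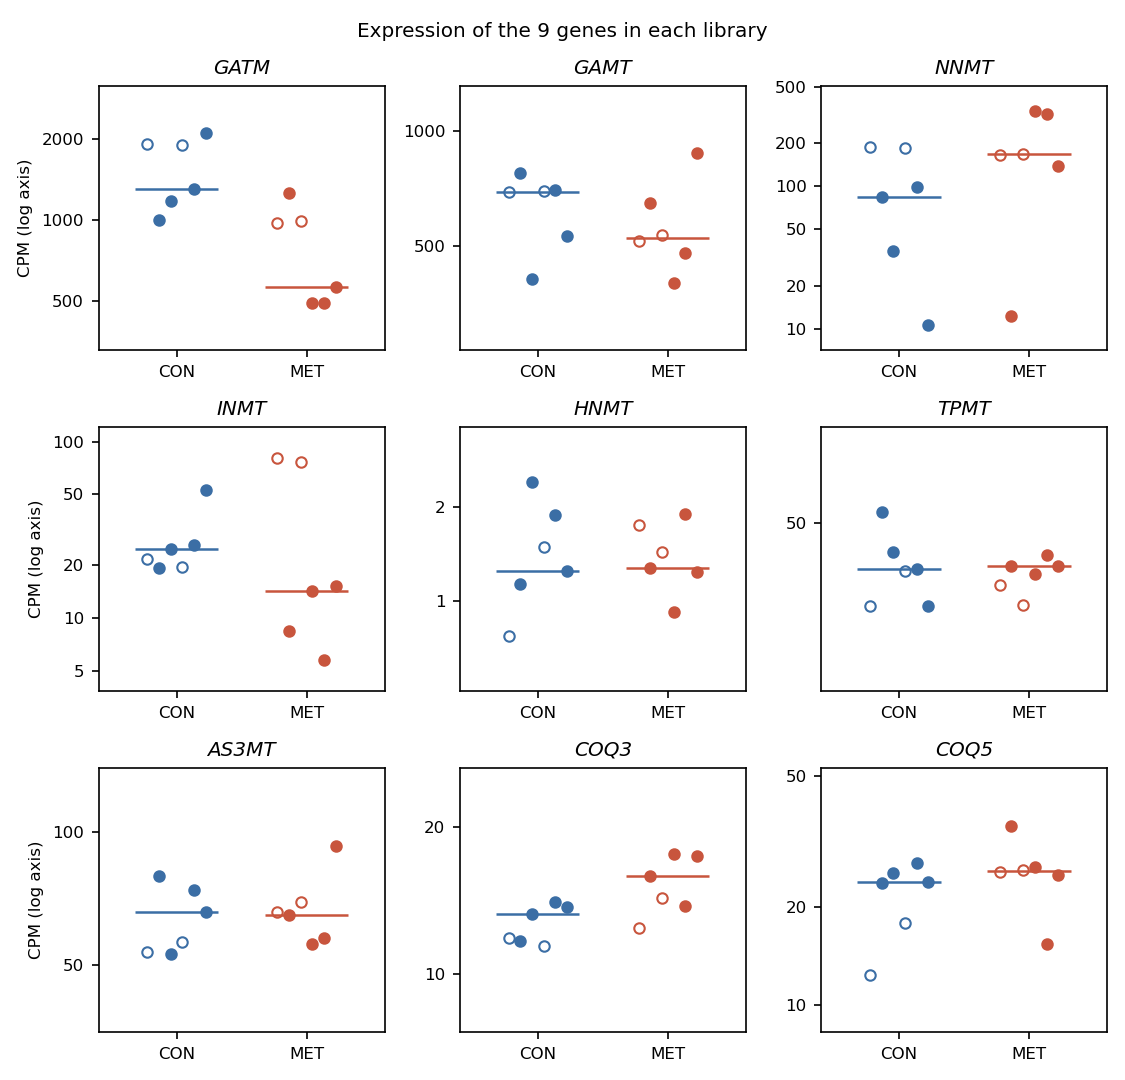
Expression of the 9 genes in each of the 12 libraries, in CPM on log axes, by maternal diet. Open symbols are the near-identical libraries and lines are the medians of the 5 samples of a diet; GATM lies between 492 and 1259 CPM in MET and between 1004 and 2099 CPM in CON samples.

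GATM (gene ID 414732; UMD 3.1.1 chr10:65325342-65341356, plus strand, 9 exons) encodes the amidinotransferase that forms guanidinoacetate from arginine and glycine. In CON samples GATM was at 1004, 1176, 1309, 1911 and 2099 CPM, with a mean of 1500 ± 478 (SD, n = 5). In MET samples it was at 492, 494, 562, 987 and 1259 CPM, with a mean of 759 ± 347 (SD, n = 5). Of the MET samples 4 of 5 were below every CON sample, and MET replicate 2 lay within the CON range, above CON replicates 2 and 3. The log2 fold change, MET minus CON, was −0.98 ± 0.27 (SE), with an adjusted p of 0.0855 by edgeR's quasi-likelihood test over the 12 libraries. Over 10 samples it was −0.98 ± 0.31, with an adjusted p of 0.189 in edgeR and of 0.0519 in DESeq2, the latter chosen after seeing the data. GATM is also in the study's own list of differentially expressed genes, which was drawn from these libraries, so that its call is not independent evidence. In bulk tissue, fewer cells of a type and less RNA per cell cannot be told apart. The call held in 2 of the 12 fits that left out 1 library, those without CON replicate 2 and without MET replicate 2. Leaving out any of CON replicates 1, 3, 4, 5 and 6 or MET replicates 1, 3, 4, 5 and 6 ended it. Over all 12 such fits, those that kept the call included, the log2 fold change lay between −1.16 and −0.87 and adjusted p between 0.0674 and 0.158. The call was also lost with library size only (adjusted p = 0.164, edgeR), with no filter (0.119) and with a correction for gene length (0.107).

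GAMT (gene ID 515270; chr7:45433856-45436898, minus strand, 7 exons) encodes the enzyme that methylates guanidinoacetate to creatine. It was at 409, 529, 692, 698 and 775 CPM in CON and at 399, 479, 523, 645 and 872 CPM in MET samples. The highest and the lowest sample were both MET, and the diets overlapped almost completely. The log2 fold change was −0.14 ± 0.20 over the 12 libraries (adjusted p = 0.723, edgeR) and −0.090 ± 0.23 over 10 samples (adjusted p = 0.883). Per kilobase of exon, GATM stood to GAMT in a ratio of 0.655, 0.949, 1.40, 1.45 and 2.01 in CON samples. In MET samples that ratio was 0.326, 0.522, 0.624, 0.954 and 0.988. The ratios of both diets overlap, and whether the diet difference of GATM is other than that of GAMT was not tested.

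NNMT (gene ID 511161; chr15:25142601-25148542, plus strand, 3 exons) encodes the enzyme that methylates nicotinamide. It was at 10.6, 35.2, 83.3, 99.3 and 187 CPM in CON and at 12.2, 138, 167, 323 and 336 CPM in MET samples. CON replicate 6 and MET replicate 2 were low, MET replicates 4 and 5 were above every CON sample, and the highest sample was 31.8 times the lowest. For NNMT the log2 fold change was 0.92 ± 0.67 (adjusted p = 0.458, edgeR) over the 12 libraries and 1.23 ± 0.77 (adjusted p = 0.446) over 10 samples. Both fold changes were smaller than the within-diet SD of log2 CPM of NNMT, which was 1.78.

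INMT (gene ID 527922; chr4:66002072-66006203, plus strand, 3 exons) encodes a methyltransferase of indoleamines such as tryptamine. It was at 19.2, 20.4, 24.4, 25.7 and 53.2 CPM in CON and at 5.71, 8.40, 14.2, 15.2 and 78.7 CPM in MET samples. The highest MET sample is the near-identical pair of replicates 1 and 3, and the other 4 MET samples were below every CON sample. The log2 fold change was 0.30 ± 0.59 (adjusted p = 0.816, edgeR) over the 12 libraries and −0.20 ± 0.61 (adjusted p = 0.902) over 10 samples. Over the 12 libraries it was also negative with voom (−0.32) and with a replicate block (−0.33), and it was negative without MET replicate 1 (−0.18) or without MET replicate 3 (−0.13).

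HNMT (gene ID 613413; chr2:59376269-59470151, minus strand, 7 exons) encodes the enzyme that methylates histamine. It was the least abundant of the 9, with 7 to 21 reads per library, between 1.13 and 2.40 CPM in CON and between 0.921 and 1.90 CPM in MET samples. Of the MET samples 4 lay within the CON range. Its log2 fold change was −0.063 ± 0.28 (adjusted p = 0.929, edgeR), and it was above 0 without CON replicate 3 (0.12), CON replicate 5 (0.017) or MET replicate 4 (0.029).

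TPMT (gene ID 511644; chr23:39209308-39232415, plus strand, 9 exons) encodes the enzyme that methylates thiopurines. It lay between 33.6 and 52.5 CPM in CON and between 35.5 and 43.0 CPM in MET samples, with medians of 40.0 and 40.6 CPM. All 5 MET samples fell within the CON range, and the log2 fold change was −0.052 ± 0.11 (adjusted p = 0.836, edgeR), or 0.035 without CON replicate 2. AS3MT (gene ID 505482; chr26:23747293-23764481, plus strand, 11 exons) encodes the enzyme that methylates trivalent arsenic. It lay between 53.0 and 79.7 CPM in CON and between 55.8 and 93.1 CPM in MET samples. MET replicate 6 was the highest and the other MET samples were within the CON range. The log2 fold change of AS3MT was 0.088 ± 0.14 (adjusted p = 0.771, edgeR), or −0.026 without MET replicate 6 and −0.0032 after a correction for gene length. Over 10 samples the adjusted p was 0.874 for TPMT, 0.910 for AS3MT and 0.855 for HNMT.

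COQ3 (gene ID 540298; chr9:51053117-51077752, plus strand, 7 exons) encodes the O-methyltransferase of coenzyme Q synthesis. It was at 11.6, 11.7, 13.3, 13.7 and 14.1 CPM in CON and at 13.4, 13.8, 15.9, 17.4 and 17.6 CPM in MET samples. MET replicates 2, 4 and 6 were above every CON sample, while the other MET samples lay within the CON range. For COQ3 the log2 fold change was 0.27 ± 0.11 (unadjusted p = 0.0313, adjusted p = 0.199, edgeR) over the 12 libraries. Over 10 samples it was 0.28 ± 0.12 (adjusted p = 0.292). It failed the correction, and 20.5% of all genes tested reached 0.05 before adjustment in that fit.

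COQ5 (gene ID 533208; chr17:65047216-65064518, minus strand, 7 exons) encodes the C-methyltransferase of the same pathway. It lay between 15.1 and 27.1 CPM in CON and between 15.3 and 35.3 CPM in MET samples. The lowest CON sample was the near-identical pair of replicates 1 and 4, and 4 of 5 MET samples were within the CON range. MET minus CON, the log2 fold change was 0.24 ± 0.20 (adjusted p = 0.522, edgeR) over the 12 libraries and 0.16 ± 0.21 (adjusted p = 0.740) over 10 samples.

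**Figure D2:**
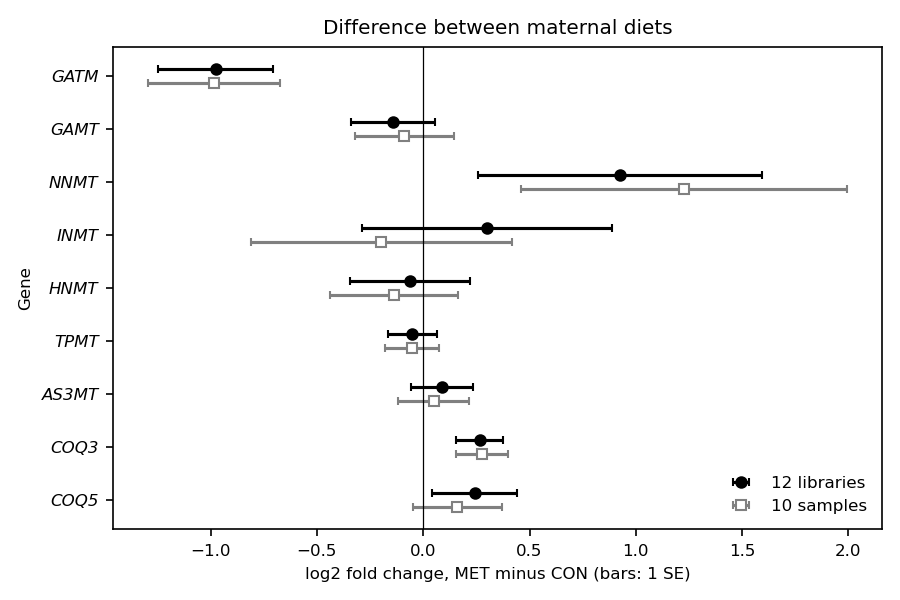
Log2 fold change of each gene, MET minus CON, with bars of 1 SE, over the 12 libraries (black circles) and over 10 samples (grey squares). GATM lies at −0.98 in both, and INMT moves from 0.30 to −0.20.

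None of the 9 genes shares exonic bases with another annotated gene on either strand in the annotation of the files. Genes annotated within the spans of GAMT, HNMT, INMT and COQ3 had at most 3 reads in any library.

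Per kilobase of exon, the order of mean log2 levels was GAMT, GATM, NNMT, AS3MT, TPMT, INMT, COQ5, COQ3 and HNMT. GAMT had a mean of 514 ± 136 and GATM of 488 ± 240 CPM per kilobase (SD, n = 10), which placed them at rank 139 and 152 among the 13212 genes tested. By mean level, which of them came first differed by diet. In CON samples GATM had a mean of 648 ± 207 and GAMT of 530 ± 127. In MET samples these means were 328 ± 150 and 498 ± 157 (SD, n = 5 each). GAMT was higher in 2 of 5 CON and 5 of 5 MET samples, and whether the order depends on diet was not tested. HNMT had a mean of 0.753 ± 0.236 CPM per kilobase, at rank 11895. GATM and GAMT held the first or second place in every sample and HNMT the last. For neighbours in this order the threshold was an adjusted p of 0.05. Of the 8 pairs 4 passed it, each with the smallest p that the exact two-sided sign-flip permutation test can give (0.00195, adjusted p = 0.00391 over 8 pairs), and in each of them the first gene was higher in 10 of 10 samples. These were GATM over NNMT, AS3MT over TPMT, COQ5 over COQ3 and COQ3 over HNMT. GAMT was higher than GATM in 7 of 10 samples (exact adjusted p = 0.560), NNMT than AS3MT in 6 (0.982), and TPMT than INMT in 5 (0.982), which did not differ beyond their spread. INMT was higher than COQ5 in 8 of 10 samples (exact p = 0.0332, adjusted p = 0.0531), just above that threshold and below the 0.10 used for the diets. NNMT ranged from place 3 to 8, as did INMT. The whole order was the same in 4 of 11 alternatives, and without the pair of CON replicates 1 and 4 or the pair of MET replicates 1 and 3 the number of neighbours past the threshold was 3.

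**Figure D3:**
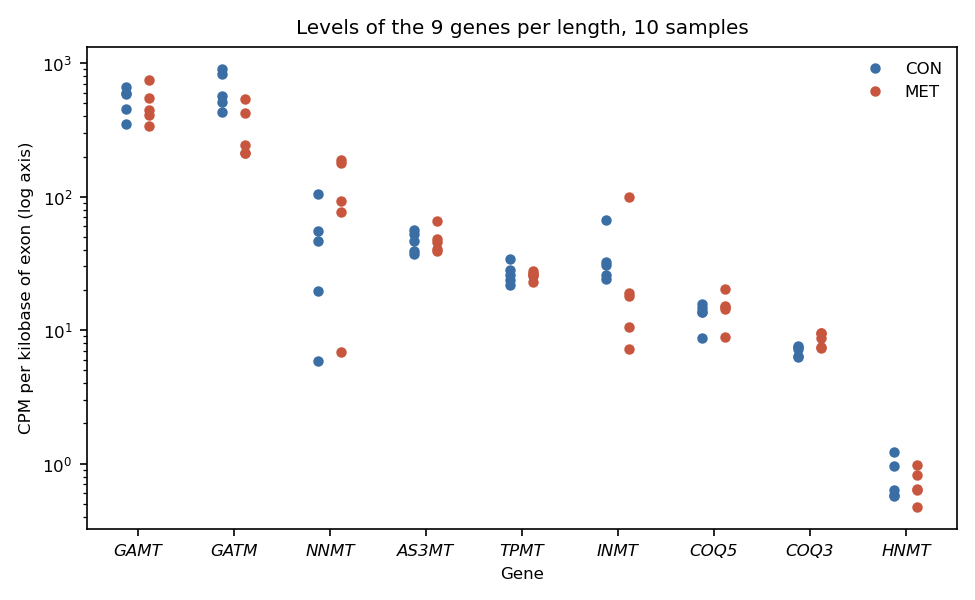
CPM per kilobase of exon, on a log axis, for each gene in the 10 samples, in the order of mean log2 level and by maternal diet. NNMT and INMT spread over places 3 to 8 in single samples, and GATM and GAMT are above the rest.

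The genes differed in how far samples of one diet lay apart. The within-diet SD of log2 CPM was 1.78 for NNMT and 1.09 for INMT, which placed them at percentiles 99.5 and 98.0 of all genes tested, where the median SD was 0.289. It was 0.159 for COQ3 and 0.189 for TPMT, at percentiles 11.4 and 20.0. GATM had a within-diet SD of 0.549 and GAMT of 0.405.

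Among the 36 pairs of these genes none was correlated across the 10 samples after Benjamini-Hochberg adjustment. The closest pair was GAMT and AS3MT, with a Pearson r of 0.793 (permutation p = 0.00676, adjusted p = 0.243) and a Spearman rho of 0.745 (permutation p = 0.0173, adjusted p = 0.622). Without MET replicates 4 and 6, the samples farthest from the median of GAMT, r was 0.653 over 8 samples. With diet means subtracted, r of GAMT and AS3MT was 0.817 (permutation, adjusted p = 0.153) and rho was 0.855 (permutation, adjusted p = 0.107). Without the samples then farthest, CON replicate 3 and MET replicate 6, that r was 0.631. GATM and NNMT had r = −0.649 (permutation p = 0.0423, adjusted p = 0.728) and rho = −0.661 (permutation p = 0.0434, adjusted p = 0.782), and without MET replicates 4 and 5 r was −0.408. With diet means subtracted r was −0.624, and without the samples then farthest, MET replicate 2 and CON replicate 6, it was 0.107. GATM and GAMT, which act in sequence, had r = 0.185 (permutation p = 0.601, adjusted p = 0.943) and rho = 0.321 (permutation p = 0.367, adjusted p = 0.891), and r was −0.398 without MET replicates 4 and 5.

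By Pearson r of log2 CPM over the 10 samples, the genes most like GATM among all tested were NKD2 (r = 0.956) and RUFY3 (r = 0.928). Those most like GAMT were NSMCE4A (r = 0.949) and LOC100847839 (r = 0.948). NNMT was followed most closely by NRROS (r = 0.937) and LRG1 (r = 0.931), and INMT by SPTAN1 (r = 0.916) and PDCD1 (r = 0.913). For HNMT these were LOC615112 (r = 0.919) and ARID5B (r = 0.906), and for TPMT NUDT3 (r = 0.900) and GET1 (r = 0.898). F10 (r = 0.954) and NELFE (r = 0.946) were closest to AS3MT, LOC100196898 (r = 0.966) and TSSC4 (r = 0.966) to COQ3, and DLAT (r = 0.948) and CYCS (r = 0.942) to COQ5. These values are the highest of 13212 genes and describe likeness in these samples. Diet means were not subtracted, so that a shared difference between the diets enters r; RUFY3 (log2 fold change −0.53, adjusted p = 0.0707, edgeR) and TSSC4 (0.65, 0.0755) passed the diet comparison themselves.

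Genes that act beside these enzymes were followed as lists. Of 75 genes matched in 9 such lists 61 were tested, 5 passed an FDR of 0.10 over the 12 libraries and none over 10 samples in edgeR, and DESeq2 called 9 and 3. Over the 12 libraries 4.41% of all genes passed in edgeR and 9.8% in DESeq2, and 20.5% reached 0.05 before adjustment in edgeR. In that edgeR fit the log2 fold change was above 0 for 6558 and below 0 for 6654 of the genes tested. In what follows, passing is by edgeR over the 12 libraries where nothing else is said. The list on the supply of SAM and the removal of SAH and adenosine held 7 genes, among them AHCYL1 and AHCYL2, which resemble AHCY and are not known to hydrolyse SAH. None passed in edgeR or DESeq2, 2 reached 0.05 before adjustment in edgeR, both lower, and the median log2 fold change was −0.15 with all 7 below 0, although AHCY was above 0 (0.034) with library size only. AHCY, which hydrolyses SAH, was the most abundant of them per kilobase and had a log2 fold change of −0.0057 ± 0.14, and the smallest p was that of AHCYL2 (−0.43 ± 0.15, adjusted p = 0.136, edgeR). Of 5 genes of homocysteine remethylation none passed in edgeR, where 2 reached 0.05 before adjustment, both lower, and the median was −0.38. DESeq2 called 1 of them over the 12 libraries, BHMT2 (adjusted p = 0.0935), and none over 10 samples. BHMT, the betaine-dependent enzyme, lay between 1141 and 1719 CPM in CON and between 753 and 1256 CPM in MET samples (log2 fold change −0.38 ± 0.16, adjusted p = 0.194, edgeR), and BHMT2 had the smallest p (−0.72 ± 0.26, adjusted p = 0.151). BHMT2 passed without CON replicate 2 (adjusted p = 0.0855) or MET replicate 2 (0.0853). Of 7 other small-molecule methyltransferases 5 were tested and none passed or reached 0.05 before adjustment in edgeR, with a median of 0.051. In DESeq2, which gave no p for GNMT over the 12 libraries, none of these genes passed. The most abundant of these per kilobase was TMT1B (0.051 ± 0.14), and the smallest p was that of CARNMT1 (−0.29 ± 0.15, adjusted p = 0.287, edgeR).

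Of 7 genes that transport creatine or phosphorylate it, 3 were tested and none passed in edgeR, where 1 higher and 1 lower reached 0.05 before adjustment. CKB, the brain-type creatine kinase, lay between 33.9 and 84.0 CPM in CON and between 53.2 and 178 CPM in MET samples (log2 fold change 0.76 ± 0.29, adjusted p = 0.166, edgeR). DESeq2 called it over the 12 libraries (adjusted p = 0.0975) and not over 10 samples (0.226). Over the 12 fits that left out a library its log2 fold change lay between 0.44, without MET replicate 6 (adjusted p = 0.302, edgeR), and 0.94. SLC16A12, a creatine transporter, lay between 41.7 and 78.2 CPM in CON and between 31.3 and 55.4 CPM in MET samples (−0.51 ± 0.19, adjusted p = 0.1504). The muscle-type kinase CKM and the transporter SLC6A13 had no read in any library.

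Of 14 tested genes of nicotinamide and NAD metabolism 1 passed over the 12 libraries, and the median log2 fold change was −0.14. NAMPT, which returns nicotinamide to NAD synthesis, lay between 51.8 and 77.9 CPM in CON and between 40.1 and 57.6 CPM in MET samples. Its log2 fold change was −0.55 ± 0.12 (adjusted p = 0.0552, edgeR) over the 12 libraries and −0.55 over 10 samples (adjusted p = 0.174), and the call was lost without CON replicate 1 (adjusted p = 0.104) or CON replicate 4 (0.116). QPRT, the most abundant of the list per kilobase, had a log2 fold change of −0.082 ± 0.17. Of 4 tested genes of histamine handling none passed in edgeR or DESeq2, 1 reached 0.05 before adjustment in edgeR, and the median was −0.16. MAOB, an amine oxidase, had the smallest p (−0.36 ± 0.14, adjusted p = 0.183, edgeR). The histamine-forming enzyme HDC was at most 0.557 CPM.

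Of 8 genes of purine salvage and thiopurine handling 1 passed in edgeR, with a median of 0.17, and DESeq2 called 2, APRT and ITPA (adjusted p = 0.0865). APRT, which salvages adenine, lay between 74.5 and 101.5 CPM in CON and between 99.7 and 147.9 CPM in MET samples. Its log2 fold change was 0.54 ± 0.12 (adjusted p = 0.0582, edgeR) over the 12 libraries and 0.53 over 10 samples (adjusted p = 0.175). The call of APRT was lost without CON replicate 1 (adjusted p = 0.108) or CON replicate 4 (0.116), and with the correction for gene length (0.116).

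Of 4 tested genes of arsenic handling 3 passed over the 12 libraries, where 4.41% of all genes did, and 2 of these had no overlap between the diets, as had 3.71% of all genes. GSTO1, an omega-class glutathione transferase, lay between 0.503 and 7.99 CPM in CON and between 11.0 and 21.5 CPM in MET samples (log2 fold change 1.51 ± 0.37, adjusted p = 0.0692, edgeR). Its lowest sample, CON replicate 2, had 4 reads, in a library where 3 reads equalled 0.377 CPM. The other CON samples lay between 5.59 and 7.99 CPM. GLRX, a glutaredoxin, lay between 33.7 and 44.5 CPM in CON and between 45.4 and 82.7 CPM in MET samples (0.55 ± 0.14, adjusted p = 0.0781). AQP9, a channel that also passes arsenite, lay between 317 and 603 CPM in CON and between 284 and 348 CPM in MET samples (−0.46 ± 0.14, adjusted p = 0.0944). Over 10 samples their adjusted p were 0.175, 0.193 and 0.213 in edgeR, and DESeq2 called GSTO1 alone (adjusted p = 0.0276). The call of GSTO1 was lost without CON replicate 1 (adjusted p = 0.123, edgeR), CON replicate 4 (0.132), MET replicate 4 (0.108) or MET replicate 6 (0.107). That of GLRX was lost without CON replicates 1 (0.139), 3 (0.110), 4 (0.145) or 6 (0.113), or MET replicates 1 (0.115) or 3 (0.103). That of AQP9 held in 1 of the 12 fits that left out a library, the one without CON replicate 5 (0.0725), and adjusted p reached 0.153 without CON replicate 4. With the correction for gene length adjusted p was 0.116 for GSTO1, 0.119 for GLRX and 0.135 for AQP9 in edgeR. PNP was the most abundant of the list per kilobase (log2 fold change −0.025 ± 0.20). NAMPT, APRT, GSTO1 and GLRX are in the study's list of differentially expressed genes too, so that these counts are not independent evidence.

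Of 11 other genes of coenzyme Q assembly none passed in edgeR, where 2 reached 0.05 before adjustment, both higher, 8 had a log2 fold change above 0, and the median was 0.18. COQ4 had the smallest p, between 27.0 and 45.0 CPM in CON and between 36.6 and 66.0 CPM in MET samples (log2 fold change 0.44 ± 0.16, adjusted p = 0.144, edgeR), and it passed without MET replicate 5 (adjusted p = 0.0964). DESeq2 called COQ4 over the 12 libraries (adjusted p = 0.0961) and not over 10 samples (0.187). COQ2, which joins the ring to its side chain, was the most abundant per kilobase (0.044 ± 0.21).

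Markers of liver cell types were measured beside the result for GATM. Among all genes tested 4.41% passed in edgeR and 9.8% in DESeq2 over the 12 libraries, and 4.47% in DESeq2 over 10 samples. Log2 fold changes over the 12 libraries in edgeR were above 0 for 6558 and below 0 for 6654 of all genes tested. Of 10 hepatocyte markers 1, APOB, passed over the 12 libraries and was lower in MET, 8 had a log2 fold change below 0, and ALB was the most abundant. The summed level of the list was 138198, 168433, 172835, 177539 and 187050 CPM in CON and 115300, 137437, 140730, 144422 and 145865 CPM in MET samples. ALB, the main plasma protein made by liver, was at 39180, 63688, 64987, 70948 and 72313 CPM in CON and at 30442, 33499, 36299, 45640 and 51376 CPM in MET samples. Of its MET samples 3 were below every CON sample, and the lowest CON sample, replicate 3, lay within the MET range. ALB had a log2 fold change of −0.65 ± 0.20 (adjusted p = 0.107, edgeR) over the 12 libraries, where DESeq2 gave an adjusted p of 0.0111, and of −0.66 over 10 samples (0.233 in edgeR, 0.0536 in DESeq2). It passed in edgeR without CON replicate 3 (adjusted p = 0.0844), and its values are given because it leads the sum of the list, which was decided after they were seen. APOB lay between 1113 and 1337 CPM in CON and between 813 and 1043 CPM in MET samples (log2 fold change −0.38 ± 0.11, adjusted p = 0.0859, edgeR). Of 9 markers of Kupffer cells or macrophages 2, C1QB (0.39 ± 0.11, adjusted p = 0.0855, edgeR) and C1QC (0.41 ± 0.089, adjusted p = 0.0571), passed and were higher in MET, and all 9 were above 0. Their summed level was 1375, 1631, 1688, 1706 and 1831 CPM in CON and 1632, 1875, 1893, 2085 and 2165 CPM in MET samples, with MARCO the most abundant. Of 9 markers of stellate cells or fibroblasts 1, LUM (−0.70 ± 0.21, adjusted p = 0.0985, edgeR), passed, all 9 were below 0, and COL3A1 was the most abundant. Their summed level was 655, 707, 743, 805 and 984 CPM in CON and 482, 538, 573, 669 and 852 CPM in MET samples. The calls of APOB (kept without MET replicate 5 alone), C1QB (kept without CON replicate 3 or MET replicate 5) and LUM (kept without CON replicate 2 or MET replicate 5) were lost in the other fits that left out a library, and that of C1QC without CON replicate 1 (adjusted p = 0.117, edgeR) or CON replicate 4 (0.124). With the correction for gene length none of these calls held in edgeR: APOB had a log2 fold change of −0.20 (adjusted p = 0.373), C1QB of 0.32 (0.146), C1QC of 0.28 (0.147) and LUM of −0.74 (0.116). None of these marker genes passed over 10 samples in edgeR. DESeq2 over 10 samples called C1QC (adjusted p = 0.00251), APOB (0.0111), ALB and C1QB (0.0773), and not LUM (0.121), and over the 12 libraries it also called CD68 (0.0452) and C1QA (0.0944). The part of cell types in the difference of GATM was not tested. APOB, C1QB, C1QC, LUM and ALB are named among the study's differentially expressed genes as well.

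Of 8 endothelial, 4 tested cholangiocyte, 3 tested erythroid and 4 tested lymphocyte markers none passed in edgeR or DESeq2, and 1, the endothelial marker KDR, reached 0.05 before adjustment in edgeR. The summed level was at most 522 CPM for the endothelial list, led by STAB2, 91.8 CPM for the cholangiocyte list, led by EPCAM, and 53.8 CPM for the lymphocyte list, led by PTPRC. The erythroid list, led by HBB, ranged from 8.76 CPM in the pair of CON replicates 1 and 4 to 1084 CPM in CON replicate 2, and from 65.7 to 590.3 CPM in MET samples.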

How the data were processed

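The authors aligned single-end reads of stranded mRNA libraries with STAR 2.5.3a to UMD 3.1.1, a bovine assembly, and counted them per gene with featureCounts of Subread 1.5.2. They deposited raw counts per Entrez gene ID for each of 12 libraries, without normalization. Per the file headers, counting used the strand and left out reads with several matches or several genes. Names came from a RefSeq table of assembly ARS-UCD2.0, which named 25105 of 30336 IDs, and no position was taken from it.

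Genes were filtered with edgeR 4.0.16 in R 4.3.3 (minimum count 10, minimum total 15), which kept 13212 of 21227 genes with a read. Diets were compared with the quasi-likelihood test on TMM-scaled counts, with diet alone in the model, Benjamini-Hochberg adjustment over all genes and a threshold of 0.10. SE was calculated as the size of the fitted coefficient, without shrinkage, divided by the square root of the F value of its test. CPM used the totals of the genes kept. Log2 CPM had a prior count of 2, and correlations used 100000 permutations. Neighbours in level were called at an adjusted p of 0.05. Floors and depth cover counting error only. Over the 12 libraries a near-identical pair enters as 2 samples.

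Named were all 9 genes, in each list the genes past the threshold, that with the smallest p and that with the highest level per kilobase, and for each of the 9 the 2 genes with the highest r; 1 gene that this rule names is not reported here. The members and lists were chosen with earlier results of these data known. All 9 passed the filter, so that no test for genes below it was needed. NMNAT3 was not matched. Alternatives were RLE and upper quartile factors, library size only, DESeq2 1.42.0, voom of limma 3.58.1, robust estimation, no filter, CPM above 0.5 in at least 2 libraries, 10 samples, each library left out, replicate blocks, and offsets that take out each library's trend with exonic length (lowess, span 0.5). DESeq2 and the length correction over 10 samples were added after seeing the data. Fits were tested on simulated independent libraries without near-identical pairs, which cannot show how such pairs affect the calls. Proteins were not compared, because no sequences were used here. Figures were drawn with matplotlib 3.10.9.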

Additional observations from a re-analysis of the deposited data

Results flagged for a closer look

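In 10 of 66 groups of 5 samples, 1 sample stood apart from the others by more than 0.71 of the range of its group. For independent, normally distributed values chance does so in about 1 in 20 groups. Whether CPM of these genes meet that condition was not tested, so that no excess over chance is read from this count. For INMT these were CON replicate 6 at 53.2 CPM, with the others between 19.2 and 25.7, and the pair of MET replicates 1 and 3 at 78.7 CPM, with the others between 5.71 and 15.2. For COQ5 the pair of CON replicates 1 and 4 was low at 15.1 CPM, below 23.6 to 27.1. AHCY was high in CON replicate 2 at 2334 CPM, above 1851 to 1971, and in MET replicate 6 at 2802 CPM, above 1645 to 1915. CKB was also high in MET replicate 6, at 178 CPM against 53.2 to 88.4. GLRX was high in MET replicate 4 at 82.7 CPM, above 45.4 to 55.4. COQ4 was low in CON replicate 3 at 27.0 CPM, below 41.8 to 45.0, as was ALB in the same sample at 39180 CPM, below 63688 to 72313. LUM was high in MET replicate 5 at 13.0 CPM, above 6.15 to 7.23.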

How the results depend on the processing

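The number of genes past an FDR of 0.10, 583, was 107 with library size only, 1295 with DESeq2, 238 with no filter, 250 with the gene length correction and 0 over 10 samples, with or without that correction; it was between 26 and 564 when 1 library was left out. Of the 9 genes GATM alone passed, and the count of 1 became 0 over 10 samples, with library size only (adjusted p = 0.164, edgeR), with no filter (0.119), with the gene length correction (0.107) and with both (0.237), and was between 0 and 1 when 1 library was left out. It kept its call with RLE and upper quartile factors, DESeq2 (0.0129), voom (0.0819), robust estimation, the CPM filter (0.0941) and DESeq2 over 10 samples (0.0519). In the lists beside them 5 genes passed, against 1 with library size only or the gene length correction, 9 with DESeq2, 3 with no filter, 3 with DESeq2 over 10 samples, 0 over 10 samples with or without the length correction, and between 0 and 5 when 1 library was left out. DESeq2 and the length correction over 10 samples were chosen after seeing the data.

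With the replicate number as a replicate block, 6 genes passed, 0 of the 9 genes (GATM adjusted p = 0.181, edgeR) and 0 of the lists, and with the block and the gene length correction 4, 0 (0.223) and 0. Libraries with the same number did not deviate together (r between −0.190 and 0.148), and no CON library correlated best with the MET library of its own number.

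The sign of some log2 fold changes turned. INMT, 0.30 over the 12 libraries, was −0.20 over 10 samples, −0.32 with voom, −0.33 with the block, −0.50 with block and length correction and −0.33 over 10 samples with the length correction. AS3MT was −0.0032 with the length correction, −0.0070 with block and length and −0.043 over 10 samples with length. AHCY was 0.034 with library size only, 0.0034 with no filter and 0.0039 with the CPM filter, and PNP was 0.015 with library size only. TMT1B was −0.050 over 10 samples, −0.016 with length, −0.035 with block and length, −0.048 with DESeq2 over 10 samples and −0.12 over 10 samples with length. COQ2 was −0.0016, −0.040, −0.062, −0.00058 and −0.088 in the same order. With 1 library left out, log2 fold changes ranged from −0.20 to 0.12 for HNMT, −0.10 to 0.035 for TPMT, −0.18 to 0.61 for INMT, −0.026 to 0.16 for AS3MT, −0.14 to 0.047 for AHCY, −0.023 to 0.10 for TMT1B, −0.15 to 0.021 for QPRT, −0.15 to 0.067 for PNP and −0.078 to 0.15 for COQ2. The cause was not tested. Among the neighbours in level 3 to 4 pairs passed, and 0 correlations passed in any alternative. DESeq2 over 10 samples gave no p for INMT. ALB passed with upper quartile factors (adjusted p = 0.0982, edgeR), robust estimation (0.0886), voom (0.0986), DESeq2 (0.0111) and DESeq2 over 10 samples (0.0536). HNMT had 7 to 21 reads per library.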
